A study of Homo sapiens with 15 samples.

Results

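Oxidative phosphorylation transcripts encoded in the nucleus were followed across 5 sublines of VCaP, an established androgen-sensitive prostate cancer cell line. The members are 57 genes for subunits of complexes I to V, chosen from a fixed list of names, and all 57 were matched by symbol among the 58381 genes counted. They comprise 31 genes of complex I, 3 of complex II, 7 of complex III, 10 of complex IV and 6 of complex V, with NDUFA4 placed in complex IV. Bulk RNA-seq was available for 15 libraries, 3 of each subline.

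All sublines were kept in RPMI medium with DCC-FBS. VCaP-T was grown with 10 nM testosterone for 7 months. VCaP-CT was derived from it over 10 further months at 0.1 nM testosterone by the growth protocol, although the treatment entry of the sample labels gives 10 nM for those months. Growing VCaP-CT cells with 10 µM enzalutamide, an antiandrogen drug, gave VCaP-CT-ER. VCaP-CT-BR came from VCaP-CT under bicalutamide, an older antiandrogen, and its labels also mention enzalutamide given once the cells no longer responded. VCaP-CT-BR-ER was the multiresistant line that then grew despite enzalutamide. Each subline was derived once, so treatment, time in culture and derivation cannot be told apart, and p-values measure the spread between libraries. In bulk RNA, fewer cells of a type and less RNA per cell cannot be told apart either.

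Oxidative phosphorylation makes most of the ATP of a respiring cell. Complex I takes electrons from NADH and complex II from succinate, both pass them through ubiquinone to complex III and on by cytochrome c to complex IV, which reduces oxygen, and complex V uses the resulting proton gradient to make ATP. Complex II is built from nuclear genes alone, whereas the other complexes join nuclear subunits to subunits made from mitochondrial DNA. Prostate epithelium is known for exporting citrate, and malignant prostate cells for oxidizing it.

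Library totals lay between 33665716 and 46935279 counts, and 19621 genes passed the filter on low counts. The lowest correlation between libraries of a subline was 0.9913 and the highest between sublines was 0.9802. Over all genes, each library was thus closest to its own subline. Genes could still differ between libraries of a subline, as given below for ATP5F1D, and some did so together. ATP5F1D, NDUFS7, NDUFB7, NDUFS8 and NDUFV1 were lowest within their subline in VCaP-CT replicate 3, VCaP-CT-ER replicate 3 and VCaP-CT-BR replicate 1. Other members, among them NDUFA1, did not follow. Over 12720 genes, deviations from the subline mean correlated from -0.607 to 0.526 between libraries of the sublines compared. The cause was not tested. The luminal markers HOXB13, KRT8 and KRT18 and the prostate cancer marker ERG were present in every library, while the prostate-specific antigen gene KLK3 was at a mean of 3560 CPM (counts scaled to a common library size) with the higher testosterone and at 33.2 CPM after it was lowered. KRT5 and TP63 of basal cells, COL1A2 of fibroblasts and PTPRC, CD3E and CD68 of leukocytes had at most 6 counts in any library. KRT14 of basal cells, COL1A1 and DCN of fibroblasts and VWF and PECAM1 of endothelium reached 468, 309, 22, 562 and 128 counts in the library with the most. KRT14, COL1A1, VWF and PECAM1 had their highest means in VCaP-T, between 2.94 and 12 CPM, and their part in the comparison with VCaP-T was not tested. The members together held between 0.685% and 0.842% of the counts of a library.

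Of the 57 members, 55 were tested. NDUFA6 was listed at 0 in most libraries with a maximum of 3 counts, and NDUFA3 reached at most 10 counts, so neither was tested. NDUFA7, with 16 to 43 counts, and NDUFV2, with 67 to 128 counts, were measured at very low counts for core or accessory parts of complex I, and their levels are uncertain. The pseudogene NDUFV2P1 held 94.2% of the counts summed over NDUFV2 and that copy, and pseudogenes held 59.6% of the counts summed for COX6A1, chiefly COX6A1P2. NDUFV2 was called in VCaP-CT (log2 0.48, edgeR adjusted p = 0.0099), but summed with its pseudogenes it had -0.15 (adjusted p = 0.0927). So summed, it also lost its call in VCaP-CT-BR (log2 0.175, edgeR adjusted p = 0.0583) and in the difference between the enzalutamide steps (log2 -0.045, edgeR adjusted p = 0.755), and was called lower in VCaP-CT-ER (log2 -0.19, edgeR adjusted p = 0.036). The counts of members called use NDUFV2 alone. Counting was without regard to strand, and 11 members shared more than 20% of their exon bases with another gene, with NDUFS7, NDUFB8, NDUFB11 and NDUFA1 the highest at 49.1%, 48.5%, 44.9% and 44.5%. Members with wide changes below were also among the 11, with NDUFB2 at 35.91%, ATP5PO at 25.45%, NDUFA13 at 20.97% and UQCRQ at 20.79%. Fragments could therefore be lost or misassigned for these genes.

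Promoters were examined because the members share regulators by textbook knowledge, among them NRF1, the ETS factor GABPA and YY1. Of the members, 47 had a promoter in the RefSeq table for GRCh38.p14, taken from 250 bases before to 50 bases after the start. The letters CATGCGC, the core of the NRF1 motif, stood on either strand in 11 of 47 member promoters (23.4%) and in 4.76% of 27305 promoters of the same length. The ETS letters CCGGAAG, which ERG also recognizes, stood in 14 of 47 (29.8%) against 10.9% of all promoters. The YY1 letters AAGATGGC stood in 10 of 47 (21.3%) against 3.14%. The 27305 promoters include genes without a canonical transcript start, which all 47 members had, so the shares come from starts chosen in unlike ways. A match is a run of letters and not a site. The stretches of 250 bases before the start are shown for the 5 members with the widest changes between VCaP-T and VCaP-CT whose stretch held at most 25 bases of annotated exon, 5′ to 3′, with NRF1 and ETS letters in capitals.
COX5B (chr2:97645812-97646061, strand +): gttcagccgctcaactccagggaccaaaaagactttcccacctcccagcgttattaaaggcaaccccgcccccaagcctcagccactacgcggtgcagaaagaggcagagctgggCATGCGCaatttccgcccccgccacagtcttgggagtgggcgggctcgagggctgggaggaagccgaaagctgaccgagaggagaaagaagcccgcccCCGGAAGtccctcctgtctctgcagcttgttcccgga
COX6A1 (chr12:120437863-120438112, strand +): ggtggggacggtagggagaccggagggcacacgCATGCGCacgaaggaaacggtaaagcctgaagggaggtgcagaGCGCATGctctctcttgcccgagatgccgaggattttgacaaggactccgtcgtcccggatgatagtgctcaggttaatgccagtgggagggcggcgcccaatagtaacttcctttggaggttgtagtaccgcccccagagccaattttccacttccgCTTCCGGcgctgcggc
NDUFB4 (chr3:120596086-120596335, strand +): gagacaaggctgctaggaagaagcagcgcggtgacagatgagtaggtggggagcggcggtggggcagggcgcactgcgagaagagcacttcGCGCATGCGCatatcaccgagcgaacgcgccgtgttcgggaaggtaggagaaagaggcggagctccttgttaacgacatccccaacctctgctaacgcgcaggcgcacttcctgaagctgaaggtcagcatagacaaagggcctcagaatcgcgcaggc
NDUFB6 (chr9:32573160-32573409, strand -): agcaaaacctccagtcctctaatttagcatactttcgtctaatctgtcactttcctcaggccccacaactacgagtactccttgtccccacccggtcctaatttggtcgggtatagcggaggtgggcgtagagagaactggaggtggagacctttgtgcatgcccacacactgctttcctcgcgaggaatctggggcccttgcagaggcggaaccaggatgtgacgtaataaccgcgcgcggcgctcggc
NDUFS4 (chr5:53560389-53560638, strand +): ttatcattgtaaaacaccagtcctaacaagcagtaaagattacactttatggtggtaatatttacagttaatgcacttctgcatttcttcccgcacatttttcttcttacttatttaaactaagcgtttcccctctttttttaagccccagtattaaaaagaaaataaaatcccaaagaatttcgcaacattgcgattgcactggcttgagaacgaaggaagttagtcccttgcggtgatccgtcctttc

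COX5B and COX6A1, the members that fell most when testosterone was lowered, held both motifs, as did SDHD (log2 -0.41) and SDHB, which was not called (log2 -0.04, edgeR adjusted p = 0.544). In COX5B the NRF1 letters began at position -135 and the ETS letters at -37, with another ETS match at -5 that runs past the start and is left in lower case. In COX6A1 the NRF1 letters began at -217 and, reversed, at -174, and the reversed ETS letters at -16. In NDUFB4, which rose, a forward and a reversed NRF1 match overlapped from -159. NDUFB6 and NDUFS4, which also rose, held none of the 3 motifs in the printed stretch, and NDUFS4 had the YY1 letters at position 22 past its start.

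Levels per length set the subunits of a complex apart. Over all libraries ATP5F1B, the catalytic beta subunit of ATP synthase, was the highest member at 708.2 CPM per kilobase of exon, and ATP5PO, the stalk subunit OSCP, was the lowest of complex V at 21.9. In complex IV COX6B1 was highest at 205.2 and COX4I1 lowest at 26.4 CPM per kilobase. In complex III the hinge protein UQCRH had 97.3 and UQCRB 18.6 CPM per kilobase. In complex II the iron-sulfur subunit SDHB had 30.8 and the membrane anchor SDHC 4.61 CPM per kilobase. In complex I the accessory subunit NDUFS5 was highest at 173.7 CPM per kilobase, and NDUFA6 was lowest, with at most 3 counts in a library. Why the count of NDUFA6 was so low was not tested, and it is not read as the level of the transcript. Exon length here joins all exons of a gene, so a gene with long rare exons appears lower on this scale.

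Summed over members, VCaP-T had 7559 ± 344 CPM and VCaP-CT 7663 ± 264 CPM (SD, n = 3 libraries each). With enzalutamide alone the sum was 6883 ± 190 CPM (VCaP-CT-ER), after bicalutamide 8259 ± 148 CPM (VCaP-CT-BR), and in the multiresistant VCaP-CT-BR-ER 7171 ± 207 CPM (SD, n = 3 libraries each). The libraries of VCaP-CT-BR, 8167 to 8429 CPM, lay above those of every other subline. ATP5F1B alone made up a large part of this sum, and without it the order changed. VCaP-T, at 5494 ± 240 CPM, then lay below VCaP-CT-BR-ER at 5699 ± 171. VCaP-CT-ER was still the lowest, at 5477 ± 143 CPM. Of the 55 members tested, 25 were highest in VCaP-CT-BR and 24 were lowest in VCaP-T, although 14 were highest in VCaP-T. The same counts over all genes were not computed, so these are not read as particular to the members. None of the 55 changed by 2-fold in any of 4 steps, with a largest change of 0.963 on the log2 scale, whereas 7015 of 19621 genes tested did. Those genes were not matched to the members by level, so the contrast is not read as particular to the members. Of the members 9 were called in every step (16.4%, beside 16.5% of all genes) and 4 in none (7.27%, beside 11.1%). The 4 never called were the complex I genes NDUFA7, NDUFA11, NDUFB7 and NDUFS7, all on chromosome 19, with SE from 0.133 to 0.3 on the log2 scale in the 4 steps.

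The first step compared VCaP-CT with VCaP-T and asked how the members differed after testosterone was lowered. At an edgeR adjusted p under 0.05, 28 of 55 members were higher and 11 were lower in VCaP-CT, beside 33.1% of all genes higher and 32.2% lower. The members' median log2 fold change was 0.16 against 0.03 over all genes. Without VCaP-T replicate 3 the members' median was 0.095. In complex I 16 of 29 were higher and 3 lower, and in complex III 5 of 7 were higher and 2 lower. Complex IV was divided, with 3 of 10 higher and 4 lower.

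NDUFS4, an accessory subunit near the NADH-oxidizing end of complex I, measured 15.8, 17.5 and 14.6 CPM at the start and 30.01, 26.5 and 31.8 after testosterone was lowered. The groups did not overlap, and the rise was 1.84-fold (log2 0.88, SE 0.079, edgeR adjusted p = 2.99e-09). NDUFB6 of the membrane arm measured 23.6, 22.1 and 21.4 CPM against 38.7, 38.2 and 42.5, a 1.78-fold rise (log2 0.83, SE 0.062, edgeR adjusted p = 1.61e-10). NDUFB4, also of the membrane arm, rose 1.73-fold from a mean of 100.1 ± 6.66 to 172.5 ± 13.0 CPM. NDUFA5, an accessory subunit of the peripheral arm, went the other way, from 88.5 ± 4.58 to 61.5 ± 3.24 CPM (log2 -0.52, edgeR adjusted p = 4.56e-07).

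COX5B and COX6A1 are nuclear subunits of cytochrome c oxidase. COX5B measured 83.0, 75.5 and 67.8 CPM in VCaP-T, against 41.4, 38.0 and 38.0 in VCaP-CT. Every VCaP-CT library lay below every VCaP-T library, at 0.519 of the VCaP-T level (log2 -0.95, SE 0.069, edgeR adjusted p = 1.2e-10). COX6A1 measured 135.7, 131.4 and 109.2 CPM against 66.2, 60.6 and 73.1 (log2 -0.91, SE 0.076, edgeR adjusted p = 9.8e-10), and summed with its pseudogenes its log2 fold change was -0.88. In the same complex COX7C rose 1.47-fold, COX7B 1.43-fold and COX4I1 1.24-fold. COX5B stayed low in all later sublines, between 33.6 and 40.7 CPM on average.

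The Rieske iron-sulfur protein UQCRFS1 of complex III measured 181.8, 181.3 and 165.6 CPM in VCaP-T, against 123.6, 112.1 and 127.1 in VCaP-CT (log2 -0.54, SE 0.054, edgeR adjusted p = 1.76e-08). UQCRC1, a core protein, also fell, while the other 5 members of complex III rose, among them UQCRB at 1.36-fold. Outside the member list, UQCR11 of complex III fell (log2 -0.234) and UQCR10 rose (log2 0.384). The ATP synthase subunits parted in the same manner. ATP5PO measured 50.9, 47.9 and 41.8 CPM against 90.4, 76.6 and 89.6, a 1.83-fold rise (log2 0.87, SE 0.079, edgeR adjusted p = 3.59e-09). The alpha subunit ATP5F1A rose 1.53-fold, whereas its partner beta subunit ATP5F1B measured 2159, 2081 and 1954 CPM in VCaP-T, against 1613, 1493 and 1576 in VCaP-CT, 0.756 of the earlier level. Per length of joined exons, the ratio of beta to alpha was 21.1 ± 0.430 for VCaP-T and 10.4 ± 0.064 for VCaP-CT. It was between 9.73 and 12.1 in the libraries of the other sublines. Joined exons measured 10908 bases for ATP5F1A and 2322 for ATP5F1B, which affects the size of this ratio but not its order among sublines. Thus VCaP-T stood apart from all other sublines in this ratio, with no overlap.

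**Figure D1:**
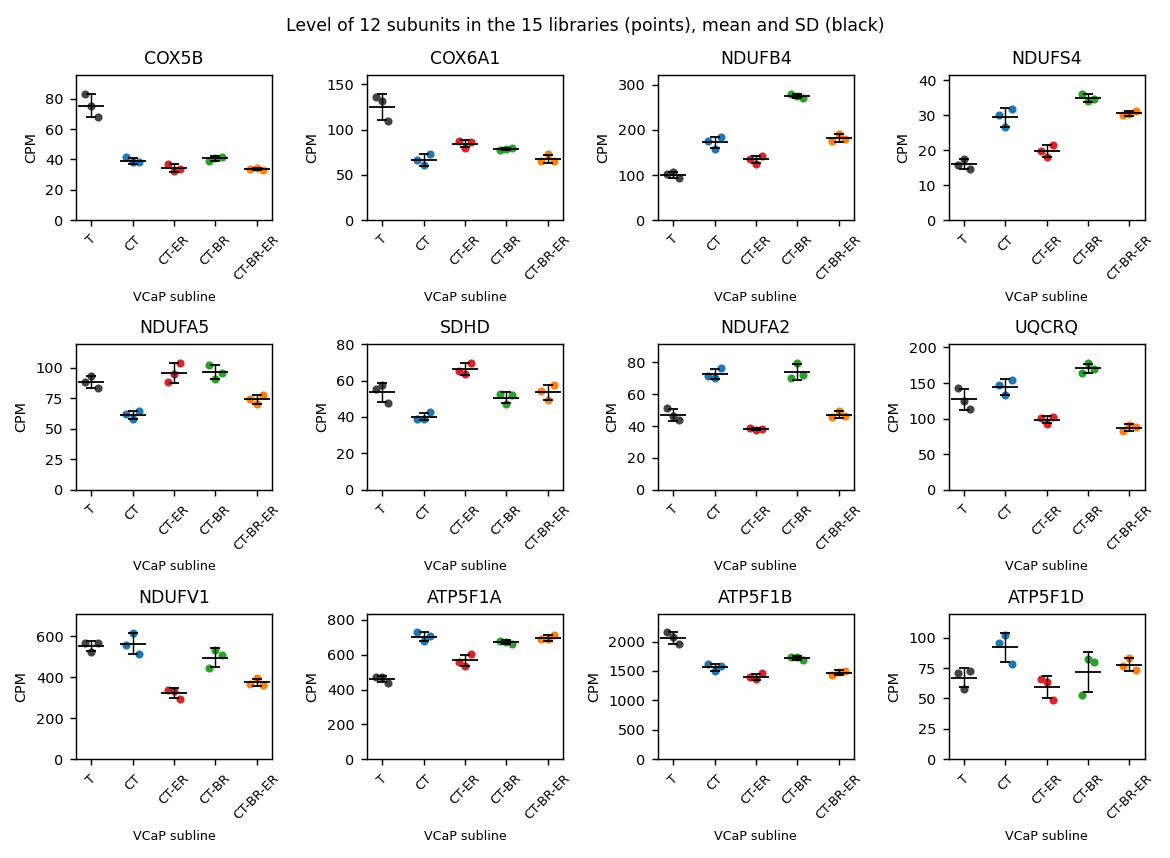
Level of 12 subunits (y axis, CPM from 0) in the 5 VCaP sublines (x axis), with each library as a point and the mean and SD over 3 libraries in black. COX5B is near 75.4 CPM in VCaP-T and at or below 40.7 CPM on average elsewhere, and NDUFB4 peaks at 274.7 CPM in VCaP-CT-BR.

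The second step compared VCaP-CT-ER with VCaP-CT and concerned enzalutamide resistance reached without bicalutamide. Here 11 of 55 members were higher and 20 lower, beside 29.6% and 31.2% of all genes. The median log2 fold change was -0.07 for the members and -0.02 for all genes. The complex V members stood out, with 5 of 6 lower and a median of -0.34. Complex V subunits outside the member list were mixed. ATP5PD (log2 -0.339), ATP5PF (log2 -0.343), ATP5MC2 (log2 -0.295) and ATP5MC3 (log2 -0.158) were called lower. ATP5MG (log2 0.225) and ATP5MJ (log2 0.206) were called higher, and the others examined were not called. Complex I had 5 of 29 higher and 8 lower, complex III 1 higher and 3 lower of 7, and complex IV 3 higher and 3 lower of 10. This step, the preceding one and the bicalutamide step share the VCaP-CT libraries.

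NDUFA2, NDUFV1 and NDUFS8 were the members of complex I that fell most. NDUFV1 is the core subunit that binds NADH and FMN, NDUFS8 a core iron-sulfur subunit and NDUFA2 an accessory subunit of the same peripheral arm. NDUFV1 measured 559.8, 618.5 and 516.2 CPM in VCaP-CT and 338.9, 333.3 and 294.4 in VCaP-CT-ER (log2 -0.81, SE 0.072, edgeR adjusted p = 3.37e-09). NDUFA2 measured 71.5, 70.3 and 76.3 against 39.0, 37.7 and 38.3 CPM (log2 -0.92, SE 0.064, edgeR adjusted p = 5.95e-11). NDUFS8 measured 205.5, 220.4 and 179.8 against 131.8, 118.8 and 106.1 CPM (log2 -0.76, SE 0.104, edgeR adjusted p = 1.83e-06). In each of the 3 genes all resistant libraries lay below all VCaP-CT libraries. NDUFS1, the large core iron-sulfur subunit of that arm, measured 91.9 ± 4.87 and 90.4 ± 6.51 CPM and was not called (log2 -0.03, edgeR adjusted p = 0.714).

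Other members rose in VCaP-CT-ER. SDHD, a membrane anchor of complex II, measured 39.1, 38.9 and 42.6 CPM in VCaP-CT and 65.3, 63.4 and 69.9 in VCaP-CT-ER, a 1.65-fold rise (log2 0.72, SE 0.074, edgeR adjusted p = 3.03e-08). Its fellow anchor SDHC fell to 0.876 of its level, and SDHB was not called. NDUFA5 measured 62.3, 58.0 and 64.3 against 88.1, 94.6 and 104.4 CPM, a 1.56-fold rise (log2 0.64, SE 0.065, edgeR adjusted p = 3.03e-08). NDUFA4 of cytochrome c oxidase measured 103.0, 88.9 and 109.3 against 139.1, 127.5 and 146.2 CPM (log2 0.45, SE 0.067, edgeR adjusted p = 5.44e-06). These 3 genes had each fallen between VCaP-T and VCaP-CT, and the means of SDHD, NDUFA5 and NDUFA4 in VCaP-CT-ER lay above those in VCaP-T. In complex V the c-ring gene ATP5MC1 rose 1.16-fold, while ATP5F1D, the delta subunit, fell to 0.645, ATP5PO to 0.771, ATP5F1C to 0.773, ATP5F1A to 0.805 and ATP5F1B to 0.901 of their VCaP-CT levels.

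The third step compared VCaP-CT-BR with VCaP-CT, under bicalutamide. In VCaP-CT-BR 27 of 55 members were higher and 5 lower, beside 26.1% and 27.0% of all genes. The median log2 fold change was 0.14 against -0.02 over all genes. The rise was spread over complexes, with 14 of 29 higher in complex I, 2 of 3 in complex II, 4 of 7 in complex III, 4 of 10 in complex IV and 3 of 6 in complex V. The count of lower members was the less stable number: it was 2 when only the compared sublines were fitted or when VCaP-CT replicate 1 was left out, and 3 without VCaP-CT replicate 2 or without VCaP-CT-BR replicate 1.

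NDUFB4 measured 174.8, 158.6 and 184.2 CPM in VCaP-CT and 278.8, 274.8 and 270.6 in VCaP-CT-BR, a 1.59-fold rise (log2 0.67, SE 0.061, edgeR adjusted p = 1.04e-08). NDUFA5 rose 1.57-fold to 102.2, 91.2 and 96.1 CPM (log2 0.65, SE 0.065, edgeR adjusted p = 4.57e-08). UQCRFS1 rose 1.33-fold to 165.6, 159.7 and 156.0 CPM (log2 0.41, SE 0.054, edgeR adjusted p = 2.28e-06). COX6A1 was also higher (log2 0.25, edgeR adjusted p = 0.00959), but not when summed with its pseudogenes (log2 0.16, edgeR adjusted p = 0.0523). For NDUFB4, NDUFA5 and UQCRFS1 the libraries of the sublines did not overlap. The members that fell most did so from less secure values. NDUFA13, an accessory subunit also known as GRIM-19, measured only 5.74, 7.72 and 6.48 CPM in VCaP-CT and 3.73, 4.997 and 5.503 in VCaP-CT-BR (log2 -0.49, SE 0.127, edgeR adjusted p = 0.00288). ATP5F1D measured 95.6, 101.8 and 78.2 against 53.0, 82.6 and 80.0 CPM, and the groups overlapped (log2 -0.35, SE 0.135, edgeR adjusted p = 0.0325). Its call was lost with DESeq2 (adjusted p = 0.0738), with only the compared sublines fitted (0.0761), and without VCaP-CT replicate 1 (0.115), VCaP-CT replicate 2 (0.164) or VCaP-CT-BR replicate 1 (0.21, with a log2 fold change of -0.18). NDUFA8, of the membrane arm, fell to 0.874 of its VCaP-CT level (log2 -0.19, SE 0.058, edgeR adjusted p = 0.00758).

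The fourth step compared VCaP-CT-BR-ER with VCaP-CT-BR and concerned enzalutamide resistance reached after bicalutamide. It shares the VCaP-CT-BR libraries with the third step, where they enter with the opposite sign. A rise in the third step and a fall in the fourth are therefore not independent. In VCaP-CT-BR-ER 27 of 55 members were lower and 2 higher, beside 21.7% and 21.2% of all genes. The median log2 fold change was -0.15 against 0.00 over all genes. All 10 members of complex IV had a lower mean, and 9 of them were called, with a median of -0.24 and COX7B the exception (log2 -0.18, edgeR adjusted p = 0.0696). Complex I had 13 of 29 lower and 1 higher, complex III 3 of 7 lower, and complex V 1 lower and 1 higher of 6. The fall in complex IV ranged from 0.903 of the VCaP-CT-BR level for COX4I1 to 0.675 for COX7A2.

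**Figure D2:**
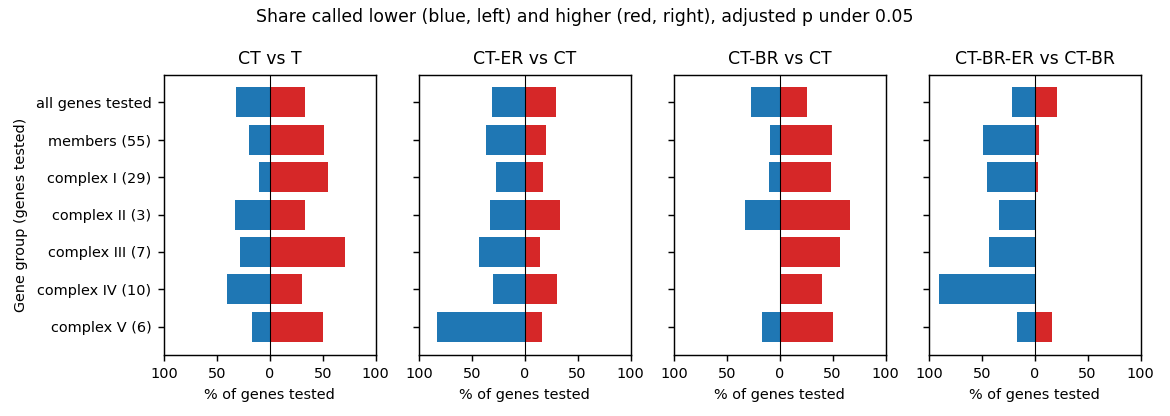
Share of genes called lower (left of 0) and higher (right of 0) at an edgeR adjusted p under 0.05, in percent of genes tested (x axis), for all genes, the 55 members tested and each complex (y axis), in 4 comparisons of sublines. In VCaP-CT-BR-ER against VCaP-CT-BR 90.0% of complex IV members were lower, and in VCaP-CT-ER against VCaP-CT 83.3% of complex V members were lower.

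UQCRQ, a small subunit of complex III, measured 164.4, 178.1 and 169.1 CPM in VCaP-CT-BR and 82.7, 91.5 and 88.3 in VCaP-CT-BR-ER. It was at 0.513 of the earlier level, the largest change of any member in these steps (log2 -0.96, SE 0.072, edgeR adjusted p = 7.23e-10). NDUFA2 measured 70.3, 79.6 and 72.2 against 45.6, 49.7 and 46.3 CPM (log2 -0.65, SE 0.063, edgeR adjusted p = 3.82e-08). NDUFB2 of the membrane arm measured 81.7, 89.2 and 84.1 against 52.1, 57.7 and 55.7 CPM (log2 -0.62, SE 0.064, edgeR adjusted p = 7.92e-08). The groups did not overlap for any of the 3. NDUFB8, NDUFB4 and NDUFS8 fell to 0.663, 0.664 and 0.666 of their levels. The 2 members that were higher, NDUFB11 at 1.118-fold and ATP5MC1 at 1.103-fold, were called by a narrow margin. NDUFB11 measured 152.5, 160.0 and 158.5 against 167.5, 189.0 and 170.3 CPM (edgeR adjusted p = 0.0171), and without VCaP-CT-BR-ER replicate 2 the adjusted p was 0.0973. ATP5MC1 measured 96.2, 97.6 and 90.9 against 100.4, 111.8 and 101.7 CPM (edgeR adjusted p = 0.0321), and the adjusted p was 0.15 without VCaP-CT-BR-ER replicate 2 and 0.126 without VCaP-CT-BR replicate 3.

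**Figure D3:**
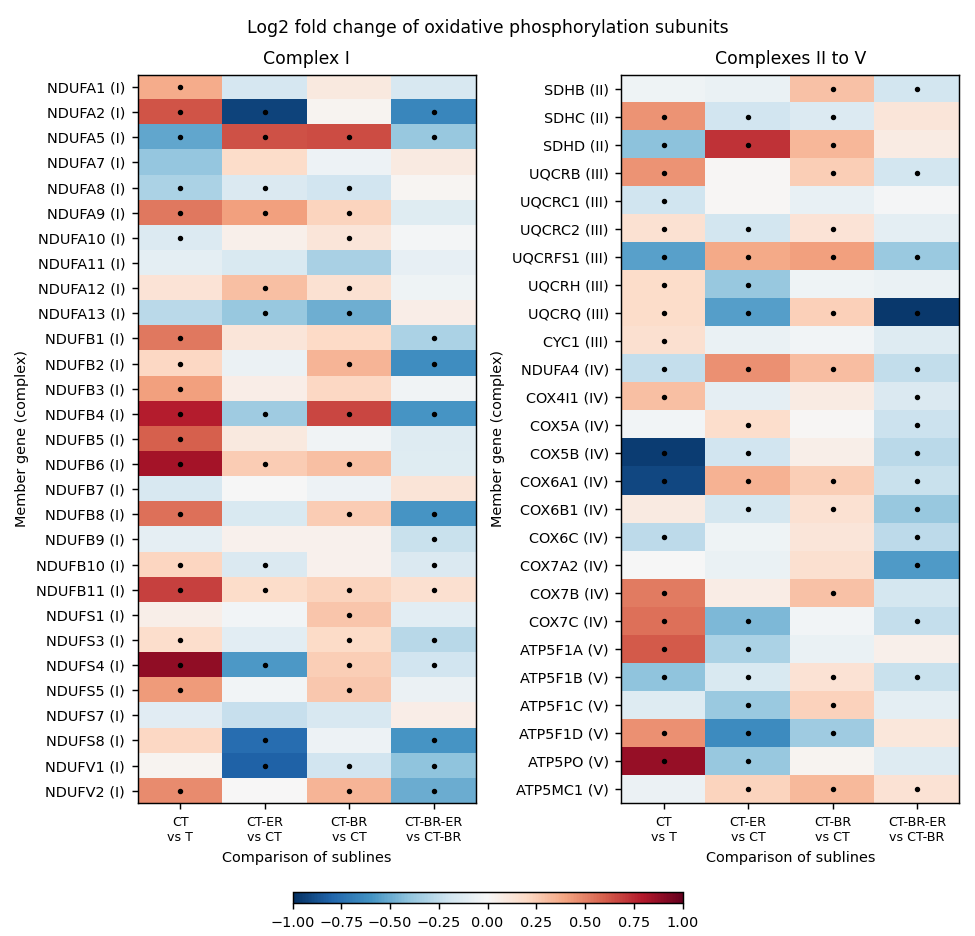
Log2 fold change (color, from -1 to 1) of the 55 members tested (rows, with their complex) in 4 comparisons of sublines (columns), with a dot where the edgeR adjusted p is under 0.05. NDUFA4, NDUFA5, UQCRFS1 and COX6A1 were called lower in VCaP-CT against VCaP-T and higher in VCaP-CT-ER and VCaP-CT-BR against VCaP-CT. They were called lower in VCaP-CT-BR-ER against VCaP-CT-BR. Successive comparisons share a subline with the opposite sign, so alternation is partly built in. COX6A1 summed with its pseudogenes was not called in VCaP-CT-BR (edgeR adjusted p = 0.0523).

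The enzalutamide steps, which share no library, were set against each other. Of the 20 members lower in VCaP-CT-ER and the 27 lower in VCaP-CT-BR-ER, 11 were in both lists, 55.0% of the first and 40.7% of the second. Over all genes tested the shares were 33.5% and 48.3%, so the members' overlap is not read as particular to them. ATP5MC1 and NDUFB11 were higher in both, with the limit given above for the later step, and 13 members were called in neither. COX5A, COX6A1, NDUFA4, NDUFA5 and UQCRFS1 were higher in VCaP-CT-ER and lower in VCaP-CT-BR-ER against their own predecessors. Shares of all genes called higher in both, in neither or in opposite directions were not computed. These combinations are therefore not read as particular to the members. The difference of the steps (VCaP-CT-BR-ER against VCaP-CT-BR, minus VCaP-CT-ER against VCaP-CT) was tested in the same fit. It was positive and called for 9 of 55 members and negative and called for 18, beside 25.2% and 24.5% of all genes, with a median of -0.08 for the members and 0.01 for all genes. The positive count was 5 without VCaP-CT replicate 3. With library totals alone in place of TMM scaling the members' median was -0.14.

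The complexes were not tested against each other. The difference was called positive for 4 and called negative for 10 of 29 members of complex I, for 1 and 1 of 3 in complex II, and for 1 and 2 of 7 in complex III. In complex V, 3 of 6 members had a positive difference and none a negative one, with a median of 0.26. In complex IV 5 of 10 members had a negative one and none a positive one, with a median of -0.24. Subunits outside the member list did not all follow. In complex V, ATP5ME (-0.425), ATP5MF (-0.526), ATP5MG (-0.53), ATP5MJ (-0.366) and ATP5MK (-0.491) had called negative differences. ATP5PF (0.373) and ATP5MC2 (0.504) had called positive ones, as had COX7A2L (0.315), listed with complex IV. The direction is thus given for the listed members only. ATP5F1D fell in the step to VCaP-CT-ER (log2 -0.63) but measured 71.9 ± 16.4 CPM before and 77.8 ± 5.25 CPM after the later step, and the difference was 0.74 (SE 0.191, edgeR adjusted p = 0.00273). ATP5F1A and ATP5F1C differed by 0.37 and 0.28 in the same direction. NDUFA5 had the lowest difference at -1.015 (SE 0.092, edgeR adjusted p = 1.04e-08), from a rise of 0.64 and a fall of 0.38 on the log2 scale. UQCRFS1 differed by -0.75 (SE 0.077, edgeR adjusted p = 6.94e-08) and NDUFA4 by -0.70 (SE 0.095, edgeR adjusted p = 3.05e-06). NDUFV1 fell in both steps, less so in the later one, with a difference of 0.41 (SE 0.101, edgeR adjusted p = 0.00214). NDUFA13 differed by 0.45 (SE 0.179, edgeR adjusted p = 0.0432), a call lost under 12 of 24 alternatives, with adjusted p from 0.0519 to 0.159 in these.

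Members were next set beside their neighbours, the other tested genes that start within 5 Mb of them on the chromosome. Across the 55 members the Pearson correlation between a member's log2 fold change and the median of its neighbours was 0.449 in the first step, 0.732 in the second, 0.507 in the third and 0.75 in the fourth. Spearman's rho was 0.548, 0.626, 0.524 and 0.699 in that order. The points share libraries, and members close together share neighbours. NDUFA2 (chr5:140638740-140647785) had fallen by 0.92 on the log2 scale in VCaP-CT-ER and its neighbours' median was -1.08. In VCaP-CT-BR-ER its change was -0.65 and its neighbours' median -0.66. UQCRQ (chr5:132866560-132868031) lies near it, with -0.55 beside a neighbours' median of -0.66 in VCaP-CT-ER and -0.96 beside -0.55 in VCaP-CT-BR-ER. NDUFV1 (chr11:67606852-67612535) and NDUFS8 (chr11:68030617-68036644) are also close, with neighbours' medians of -0.57 and -0.62 in VCaP-CT-ER, where they themselves changed by -0.81 and -0.76. For these 4 genes the chromosomal segment moved with the member, and its part in the result was not tested.

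Other members changed more than their neighbours or against them. COX5B (chr2:97646040-97648383) fell by 0.95 on the log2 scale in VCaP-CT and its neighbours' median was -0.13, and COX6A1 (chr12:120438090-120440742) changed by -0.91 beside a neighbours' median of -0.13. NDUFB4 (chr3:120596309-120602500) changed by 0.79, -0.36, 0.67 and -0.59 in the 4 steps, and its neighbours' median by 0.09, 0.35, 0.18 and 0.00, so that in the second step they had opposite signs. Among the members called, the sign was that of the neighbours' median for 29 of 39 in the first step, 22 of 31 in the second, 21 of 32 in the third and 20 of 29 in the fourth. These shares were 74.4%, 71.0%, 65.6% and 69.0%, beside 66.5%, 64.4%, 66.8% and 69.2% of all genes called in the same steps.

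**Figure D4:**
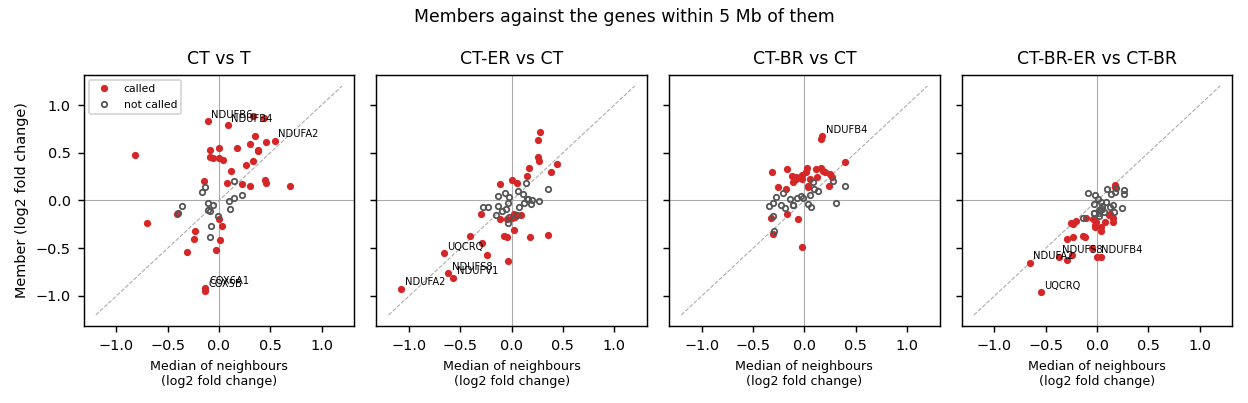
Log2 fold change of each of the 55 members (y axis) against the median log2 fold change of the other genes that start within 5 Mb (x axis) in 4 comparisons of sublines, with called members filled and the diagonal dashed. NDUFA2 lies near the diagonal at -0.92 and -1.08 in VCaP-CT-ER, whereas COX5B and COX6A1 lie far below it in VCaP-CT.

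Of 22 other subunits, 9 were higher and 5 lower in the first step, 4 and 11 in the second, 10 and 4 in the third, and 4 and 12 in the fourth. ATP5PF of the stalk of ATP synthase rose most in VCaP-CT (log2 0.80), NDUFC2 of complex I most in VCaP-CT-ER (log2 0.78) and ATP5MK most in VCaP-CT-BR (log2 0.54). COX7A2L fell most in VCaP-CT (log2 -0.40) and ATP5MC2, another gene of the c-ring, in VCaP-CT-BR (log2 -0.47). COX8A of complex IV (chr11:63974607-63976543) was the lowest in both enzalutamide steps, at -0.51 and -0.52 on the log2 scale beside neighbours' medians of -0.52 and -0.29.

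SDHA and NDUFS6, which are outside the member list, had higher log2 fold changes than any member in the step to VCaP-CT-BR-ER. SDHA is the flavoprotein of complex II that oxidizes succinate. SDHA measured 112.4, 119.8 and 118.7 CPM in VCaP-CT-BR and 822.1, 842.5 and 809.6 in VCaP-CT-BR-ER (log2 2.82, SE 0.05, edgeR adjusted p = 2.8e-20). In the other 3 sublines it lay between 90.9 and 135.3 CPM. Its partners did not follow: SDHB fell to 0.879 of its level, and SDHC (log2 0.12, edgeR adjusted p = 0.0731) and SDHD (log2 0.08, edgeR adjusted p = 0.392) were not called in that step, although SDHC summed with its pseudogenes was (adjusted p = 0.0482). Per length of joined exons, the ratio of SDHA to SDHB was 0.391 ± 0.014 before and 3.13 ± 0.115 after that step. In the libraries of the other sublines it was between 0.369 and 0.580. NDUFS6, a complex I subunit, measured 55.5, 63.1 and 61.6 CPM in VCaP-CT-BR and 284.8, 322.4 and 302.4 in VCaP-CT-BR-ER (log2 2.34, SE 0.065, edgeR adjusted p = 5.43e-17). SDHA (chr5:218241-256700), NDUFS6 (chr5:1801400-1816605) and the mitochondrial ribosomal gene MRPL36 (chr5:1798386-1801366, log2 2.62) lie close together, and the neighbours of SDHA and NDUFS6 had medians of 2.53 and 2.43. The segment's part in these results was not tested.

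**Figure D5:**
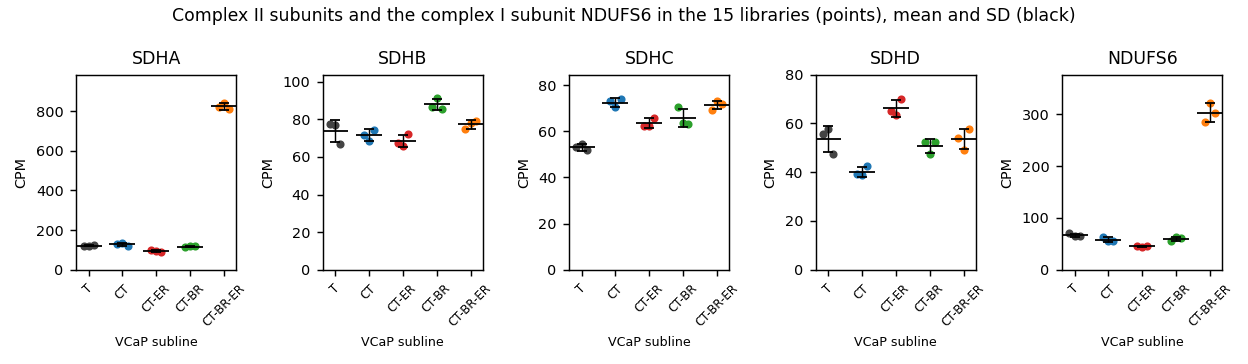
Level (y axis, CPM from 0) of the 4 complex II subunits and of NDUFS6 in the 5 VCaP sublines (x axis), with each library as a point and the mean and SD over 3 libraries in black. SDHA lies between 809.6 and 842.5 CPM in VCaP-CT-BR-ER and at most at 135.3 CPM elsewhere, while SDHB, SDHC and SDHD stay between 38.9 and 91.4 CPM.

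Isoforms restricted to muscle, testis or other tissues were scarcely detected. COX6A2 and COX8C had 0 counts in every library, COX4I2 at most 1 and COX7B2 at most 4, whereas the ubiquitous COX4I1 had a mean of 126.7 CPM. COX7A1 and COX6B2 reached 14 and 16 counts, and COX6B2 was called lower in VCaP-CT-BR (log2 -1.05, edgeR adjusted p = 0.047) and higher in VCaP-CT-BR-ER (log2 1.30, edgeR adjusted p = 0.0146) at these few counts. NDUFA4L2, a paralog of NDUFA4 known to be induced by hypoxia, had a mean of 5.13 CPM in VCaP-T and of 2.11 CPM after testosterone was lowered, with 3.16 CPM for VCaP-CT-ER and 1.16 CPM for VCaP-CT-BR. It was lower in VCaP-CT (log2 -1.275, SE 0.144) and VCaP-CT-BR (log2 -0.86, SE 0.178) and higher in VCaP-CT-ER (log2 0.58, SE 0.15). The ATP synthase inhibitor ATP5IF1 lay between 73.0 and 93.3 CPM on average, with changes of 0.15, 0.20, 0.01 and 0.14 on the log2 scale, of which the third was not called.

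Transcripts of the mitochondrial genome, the partners of the members, held between 7.18% and 9.56% of the counts. Of 13, 4 were higher and 8 lower in the first step, 9 higher and none lower in the second, 6 and 2 in the third, and 6 and 2 in the fourth, with medians of -0.20, 0.18, 0.12 and 0.11 on the log2 scale. The shares higher were 30.8%, 69.2%, 46.2% and 46.2%, beside 33.1%, 29.6%, 26.1% and 21.2% of all genes. The shares lower were 61.5%, 0.0%, 15.4% and 15.4%, beside 32.2%, 31.2%, 27.0% and 21.7% of all genes. In VCaP-CT-ER the 13 had a positive median while that of the complex V members was -0.34. MT-ND6 and MT-ND5, subunits of complex I, moved most, from 412.8 to 937.0 CPM (log2 1.18, SE 0.061) and from 1802 to 3158 CPM (log2 0.81, SE 0.057) in VCaP-CT-ER, and by 0.93 and 0.82 in VCaP-CT-BR. Both fell in VCaP-CT-BR-ER, with changes of -0.34 and -0.33, whereas MT-ND1 rose most (log2 0.32). Counts without strand cannot separate MT-ND6 from transcripts of the opposite strand. MT-CYB rose in VCaP-CT (log2 0.52), and MT-ND3 was the lowest in VCaP-CT-BR (log2 -0.20).

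Among 10 regulators of mitochondrial biogenesis, the widest changes were in PPARGC1A and ESRRA. PPARGC1A encodes the coactivator PGC-1 alpha, and ESRRA the nuclear receptor that works with it on respiratory genes. PPARGC1A measured 6.66, 7.95 and 8.15 CPM in VCaP-T, against 0.091, 0.370 and 0.363 in VCaP-CT (log2 -4.75, SE 0.216, edgeR adjusted p = 4.53e-14), and 3.54, 3.32 and 3.33 in VCaP-CT-ER (log2 3.59, SE 0.237, edgeR adjusted p = 3.01e-11). In VCaP-CT-BR it was at 0.493, 0.759 and 0.768 CPM (log2 1.27), and the multiresistant line had 0.632, 0.651 and 0.551 CPM. ESRRA (chr11:64305572-64316743) measured 223.3, 238.3 and 188.9 CPM in VCaP-CT and 47.7, 47.9 and 40.4 in VCaP-CT-ER (log2 -2.26, SE 0.101, edgeR adjusted p = 4.84e-14), beside a neighbours' median of -0.54. It was at 91.9, 117.9 and 107.8 CPM in VCaP-CT-BR (log2 -1.03) and at 51.2, 62.2 and 53.5 in VCaP-CT-BR-ER (log2 -0.93). The 3 regulators whose motifs were searched moved less: NRF1 by -0.51 and 0.26 and GABPA by 0.46 and -0.13 in the first and second steps, and YY1 by -0.02 in both. TFAM, which packages and transcribes mitochondrial DNA, rose in VCaP-CT (log2 0.49) and VCaP-CT-BR (log2 0.40), and POLRMT, the mitochondrial RNA polymerase, rose in VCaP-CT-BR-ER (log2 0.29). Per step, 3, 2, 4 and 2 of the 10 were higher and 3, 3, 3 and 4 lower.

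The remaining lists gave the setting in which the members moved. Of 45 assembly factors tested, 14 were higher and 12 lower in the first step, 19 and 9 in the second, 24 and 4 in the third, and 5 and 14 in the fourth. In VCaP-CT-ER their median was 0.11, against -0.07 for the members. COX19, which helps supply copper to complex IV, had the lowest change of the list in VCaP-CT (log2 -1.57), and UQCC1 of complex III assembly the highest (log2 0.67). NUBPL, which inserts iron-sulfur clusters into complex I, was the highest in both enzalutamide steps (log2 0.79 and 0.41), with NDUFAF2 the lowest in VCaP-CT-ER (log2 -0.78) and LYRM7, a chaperone of UQCRFS1, in VCaP-CT-BR-ER (log2 -0.64). LYRM7 (chr5:131170810-131205426) lies within 5 Mb of UQCRQ, whose neighbours had a median of -0.55 in VCaP-CT-BR-ER. The segment's part in the fall of LYRM7 was not tested. In VCaP-CT-BR NDUFAF5 was the highest (log2 0.60) and ECSIT the lowest (log2 -0.43).

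Of 75 mitochondrial ribosomal protein genes, 38 were higher and 16 lower in the first step, 18 and 26 in the second, 34 and 6 in the third, and 4 and 18 in the fourth, with medians of 0.17, 0.03, 0.13 and -0.07 on the log2 scale. The shares higher were 50.7%, 24.0%, 45.3% and 5.33%, beside 33.1%, 29.6%, 26.1% and 21.2% of all genes. The shares lower were 21.3%, 34.7%, 8.0% and 24.0%, beside 32.2%, 31.2%, 27.0% and 21.7% of all genes. MRPS6 rose most in VCaP-CT (log2 2.02), MRPL48 in VCaP-CT-ER (log2 0.61) and MRPL3 in VCaP-CT-BR (log2 0.48), and MRPS23 (log2 -0.86), MRPL12 (log2 -0.99), MRPL10 (log2 -0.65) and MRPL14 (log2 -1.39) were the lowest called in the 4 steps in order among genes with an average of at least 1 log2 CPM, below which MRPL23 had -1.27 in VCaP-CT-ER. Of 20 genes of pyruvate dehydrogenase and the citric acid cycle tested, 6, 8, 11 and 4 were higher and 7, 6, 2 and 9 lower in the 4 steps. SUCLG2, a subunit of succinyl-CoA synthetase, rose most in both enzalutamide steps (log2 1.31 and 0.41), and OGDH of the oxoglutarate dehydrogenase complex fell most in VCaP-CT-ER, from a mean of 221.3 to 112.0 CPM (log2 -0.98, SE 0.056). DLD, shared by both dehydrogenase complexes, was the lowest in VCaP-CT-BR-ER (log2 -0.45). IDH3G rose (log2 0.59) and SUCLG1 fell (log2 -0.69) most in VCaP-CT, and of the pyruvate dehydrogenase kinases PDK3 was the highest (log2 0.86) and PDK2 the lowest (log2 -0.43) of the list in VCaP-CT-BR.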

How the data were processed

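RNA was sequenced in 15 libraries of 5 VCaP sublines, and samples were grouped by the subline in their titles. The authors aligned reads to GRCh38 with STAR 2.5.4b and deposited raw counts of fragments per gene from featureCounts 1.6.2 on GENCODE release 28, run on pairs without a strand option, so that by its defaults multimapping fragments and those over several genes were not counted. From these counts, edgeR 4.0.16 (R 4.3.3) was fitted to all 15 libraries with filterByExpr at a minimum count of 10, TMM scaling, a term per subline, quasi-likelihood tests and adjustment after Benjamini and Hochberg over 19621 genes, with a threshold of 0.05. All p-values are two-sided, and all adjusted p-values are from edgeR unless named otherwise. CPM used TMM library sizes. Medians, neighbours and motifs carry no test. The members and lists were chosen with earlier results of these data known. Named members are the 3 highest and 3 lowest called in each comparison, the highest and lowest per length in each complex, all isoforms, and the highest and lowest called gene of each other list in each step at an average of at least 1 log2 CPM; NDUFB4 and the other members given without that rank were chosen after their values were seen. Depth was 33665716 to 46935279 counts, the biological coefficient of variation was 0.061, and intervals cover spread between libraries only. On data simulated for VCaP-CT against VCaP-T with 19020 genes, 94 of 100 genes changed 1.5-fold and 98 of 100 changed 2-fold were called, with 13 unchanged genes called. Alternatives were library totals, 75th percentile scaling, TMM without mitochondrial transcripts, no filter, at least 10 counts in every library, members summed with pseudogenes, only the compared sublines, a replicate block, DESeq2 1.42.0 and each library left out. Promoters came from the RefSeq table, at the start nearest that of the canonical GENCODE release 44 transcript. Of 27305 symbols, 19095 had a canonical start, including all members with a promoter. The others kept their first start by chromosome and position. Figures used matplotlib 3.10.9. Protein sequences and the other experiments of the study were not analysed here.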

Additional observations from a re-analysis of the deposited data

Results flagged for a closer look

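The following results were picked out because the change between predecessor and enzalutamide-resistant subline differed between the lineages, by a test of the difference itself in the edgeR fit. The difference is VCaP-CT-BR-ER against VCaP-CT-BR minus VCaP-CT-ER against VCaP-CT, on the log2 scale, and each lineage has 3 libraries per subline. It was 0.744 for ATP5F1D, 0.406 for NDUFV1 and 0.448 for NDUFA13, the last with a call lost under 12 of 24 alternatives. It was -1.015 for NDUFA5, -0.748 for UQCRFS1 and -0.702 for NDUFA4. Over all members tested it was called positive for 9 and negative for 18.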

How the results depend on the processing

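Across 24 alternatives, 676 of 696 values of the named members kept their direction and their side of the threshold, 20 kept the direction and were no longer past it, and 0 reversed. These 20 concern ATP5F1D in VCaP-CT-BR, ATP5MC1 and NDUFB11 in VCaP-CT-BR-ER and NDUFA13 in the difference between the enzalutamide steps. With each library left out in turn, the members' median in VCaP-CT against VCaP-T ranged from 0.095 to 0.196, the count of lower members in VCaP-CT-BR from 2 to 6, that of higher members in VCaP-CT-BR-ER from 0 to 3, and that of members with a positive difference between the steps from 5 to 10. With only the compared sublines fitted, 2 members were lower in VCaP-CT-BR. With library totals alone, the median difference between the steps was -0.136. The cause was not tested, except that leaving out a library or a subline leaves fewer samples. Same-numbered libraries correlated between -0.513 and 0.526, and not all above 0.1, so the numbers were not taken to pair them. With a replicate block, 28 members were higher and 12 lower in the step to VCaP-CT, then 11 and 20 for VCaP-CT-ER, 26 and 5 for VCaP-CT-BR, and 2 and 27 for VCaP-CT-BR-ER, and the difference was positive for 9 and negative for 17; the replicate block changed no call of a named member. NDUFA3, NDUFA6, NDUFA7 and NDUFV2 had too few counts for a firm level, for a reason that was not tested, and assignment between NDUFV2 or COX6A1 and their copies could not be checked from counts.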
